A study of Mus musculus with 6 samples.

Results

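The 10 genes described here encode intermediate filament proteins that mark neural progenitors (Nes, Vim), astrocytes (Gfap, Synm), neurons (Nefl, Nefm, Nefh, Ina, Prph) or the nuclear lamina (Lmna). They were chosen by symbol, through the Ensembl mouse gene identifiers, from the 39179 genes of the count table, and all 10 were found in it. RNA-seq had been made from neural progenitor cells of the E13.5 cerebral cortex of CD1 mice that were differentiated in culture, in 6 libraries. Per the labels, the cells of the 3 G392E-NS libraries stably expressed neuroserpin, a neuronal serine protease inhibitor, carrying the G392E change that makes it polymerise and causes the dementia FENIB. The cells of the 3 GFP libraries stably expressed green fluorescent protein in its place. Both groups therefore carry a stable transgene, and cells with wild-type neuroserpin or with no transgene were not analysed here. The labels give neither the promoter of the transgene, nor whether a line was a clone, nor whether replicates were separate cultures, and p-values therefore cover only the variation among these 6 libraries, part or all of which may be technical.

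Library totals were 24143966, 24835835 and 15507487 counts for G392E-NS replicates 1 to 3 and 16958952, 19543176 and 22936447 counts for GFP replicates 1 to 3. Xist, the RNA that silences an X chromosome in female cells, was at 1160 to 1850 CPM (the count scaled by the library total and its TMM factor) in G392E-NS libraries and at 1.41 to 1.56 CPM in GFP libraries. The groups thus differ in more than the transgene, and an effect of the transgene and of the derivation of the cells cannot be told apart. The mouse neuroserpin gene Serpini1 was at 5.45, 6.74 and 4.96 CPM in G392E-NS and 4.2, 5.17 and 4.71 CPM in GFP libraries, which overlap, so the transgene is not visible in that gene's counts; the labels do not give the species of its sequence. Markers of the labelled cells were present. The summed level of 12 neural progenitor markers was 3380 to 4140 CPM in G392E-NS and 3500 to 4140 CPM in GFP libraries. That of 12 neuron markers was 4210 to 5250 CPM and 4210 to 4760 CPM in the same order. Most of each sum came from 1 gene, Fabp7 at 2120 to 3030 CPM and Map2 at 2340 to 3090 CPM over the 6 libraries. The summed level of 12 astrocyte markers was 12200 to 21900 CPM in G392E-NS libraries, against 5270 to 7210 CPM in GFP libraries. Of the defining markers, Stmn2 of neurons was at or near 0, with at most 0.301 CPM in a library.

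Intermediate filaments are rope-like cytoskeletal polymers of proteins that share a central coiled-coil rod, and cells switch between the proteins as they mature. Dividing neural precursors build filaments of vimentin with nestin, a large partner that depends on vimentin or similar proteins to assemble. Astrocytes add glial fibrillary acidic protein (GFAP) and synemin, and raise GFAP when they mature or react to injury. Young neurons use alpha-internexin and later the neurofilament triplet of light, medium and heavy chains, while peripherin belongs mainly to peripheral and some motor neurons. Lamin A and lamin C, both products of Lmna, line the nucleus together with the B-type lamins, and are low in neural precursors.

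Start regions of Nes, Gfap and Ina are shown because they are the member that passed the test, the member with the largest fold change and the most abundant neuronal filament gene. Each sequence is the 120 bases just before the start given by RefSeq (GRCm38.p6), on the strand of the gene, with GC boxes (GGGCGG on either strand) in capitals.
Nes, chr3:87970973-87971092, plus strand: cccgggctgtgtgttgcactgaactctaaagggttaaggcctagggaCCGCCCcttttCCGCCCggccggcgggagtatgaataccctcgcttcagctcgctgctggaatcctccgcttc
Gfap, chr11:102897201-102897320, minus strand: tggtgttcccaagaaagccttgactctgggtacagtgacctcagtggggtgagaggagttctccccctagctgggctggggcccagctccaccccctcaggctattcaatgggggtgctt
Ina, chr19:47014561-47014680, plus strand: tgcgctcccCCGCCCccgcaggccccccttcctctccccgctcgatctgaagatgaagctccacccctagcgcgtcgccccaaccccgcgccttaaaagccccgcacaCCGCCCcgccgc
Over the 250 bases before the start, the Nes region held 15 CpG dinucleotides, the Gfap region 2 and the Ina region 25, against a median of 6 over the 32851 regions of the RefSeq table. Nes and Ina held 2 GC boxes each, a motif present on either strand in 32.7% of those regions, and Gfap held none. Searched on both strands in the same way, the TATA box TATAAA, the CCAAT box, the AP-1 element TGACTCA and the STAT element TTCNNNGAA had no match in these regions of Nes, Gfap and Ina. They occur in 12.4%, 33.8%, 4.46% and 7.02% of all regions in the same order. Vim and Prph each held a TATA box, ending 27 and 26 bases before their RefSeq starts. The Vim region lies inside an exon of a GENCODE M21 transcript that starts further upstream. The printed Gfap region likewise lies within the GENCODE M21 span of its gene, which reaches upstream to position 102900912. The last bases of the Nes region also lie within the span of that gene, which begins at 87971078. Of the 10 genes, 7 had a region in the table.

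Per length, the progenitor filaments were far above the others in both groups. Levels of different genes are compared as CPM per kb of merged exons. Vim was at 114, 249 and 192 CPM per kb in G392E-NS replicates 1 to 3 and at 144, 148 and 141 CPM per kb in GFP replicates 1 to 3. Nes followed at 53.4, 32.7 and 44.1 CPM per kb in G392E-NS libraries and 77.3, 80.4 and 64.0 CPM per kb in GFP libraries. Ina came next, at 14.6 to 19.8 CPM per kb in G392E-NS and 14.3 to 20.2 CPM per kb in GFP libraries. The ranges of these 3 genes over the 6 libraries did not meet. Below them lay Lmna at 1.25 to 1.79 and 1.06 to 1.14 CPM per kb, then Synm at 0.633 to 0.738 and 0.690 to 0.755 CPM per kb, with G392E-NS first. The neurofilament triplet was lower still, except that Nefm lay above Synm in G392E-NS replicate 3 (0.699 and 0.633 CPM per kb). Nefm was at 0.381 to 0.699 CPM per kb in G392E-NS and 0.239 to 0.339 CPM per kb in GFP libraries. Nefl and Nefh were at no more than 0.212 CPM per kb in any library. Prph was at 0.0424 CPM per kb or less. Gfap also changed its place in this order. It lay above Lmna in G392E-NS replicate 2 (6.20 CPM per kb) and below Nefm in all 3 GFP libraries.

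**Figure D1:**
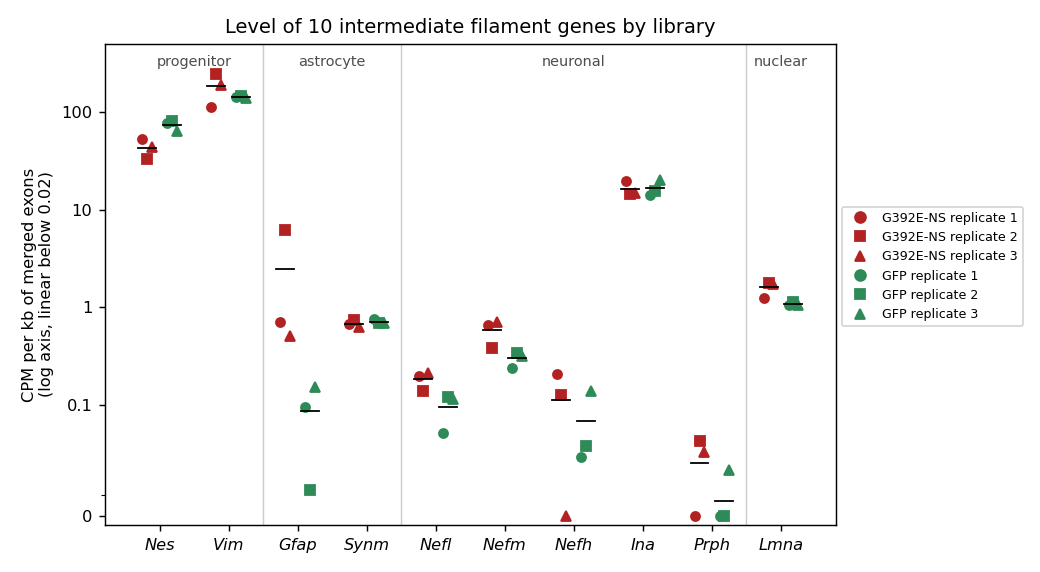
Level of each filament gene in CPM per kb of merged exons, on an axis that is logarithmic above 0.02 and linear below it. Each point is a library, with red for G392E-NS and green for GFP, and black bars are group means (n = 3 each). Nes lies lower and Gfap, Nefl, Nefm and Lmna lie higher in all 3 G392E-NS libraries than in any GFP library. Of all genes tested, 28.6% also had groups that did not overlap. Nefl was left out by the filter on low counts, with 11 to 16 counts in G392E-NS and 3 to 9 counts in GFP libraries.

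Summed by class, the 10 genes gave 190, 306 and 254 CPM per kb in G392E-NS replicates 1 to 3 and 238, 246 and 228 CPM per kb in GFP replicates 1 to 3. Progenitor filaments made up 90.8% ± 2.75 of that sum in G392E-NS and 92.0% ± 1.67 in GFP libraries (mean ± SD, n = 3 each). Neuronal filaments made up 7.38% ± 3.15 and 7.24% ± 1.64 in the same order. Astrocyte filaments were at 0.722%, 2.27% and 0.449% of the sum in G392E-NS replicates 1 to 3 and at 0.285% to 0.370% in GFP libraries, and Lmna at 0.587% to 0.685% in G392E-NS and 0.444% to 0.464% in GFP libraries. The progenitor and neuronal shares overlapped between the groups and the astrocyte and lamin shares did not.

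Over all genes, 8 of the 10 members passed the filter on low counts, Nefl and Prph being left out, and 1 of these 8 differed between the groups. It was Nes, which fell in G392E-NS libraries, while none of the 8 rose (edgeR quasi-likelihood test, adjusted over all genes tested). Of the 13775 genes tested, 6.15% were called, 1.36% lower and 4.79% higher. With 8 members tested, 1 call is not far from that background. Without adjustment, 4 of the 8 had a p under 0.05, as did 22.4% of all genes tested. Of these 4, 3 were higher (Gfap, Nefm, Lmna). DESeq2 and limma-voom also called no member higher, but DESeq2 returned no p-value for Gfap. The groups did not overlap for 4 of the 8, Nes, Gfap, Nefm and Lmna, against 28.6% of all genes tested. The median log2 fold change of the 8 was 0.46, against 0.00 over all genes tested, and 5 of the 8 were above 0.

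**Figure D2:**
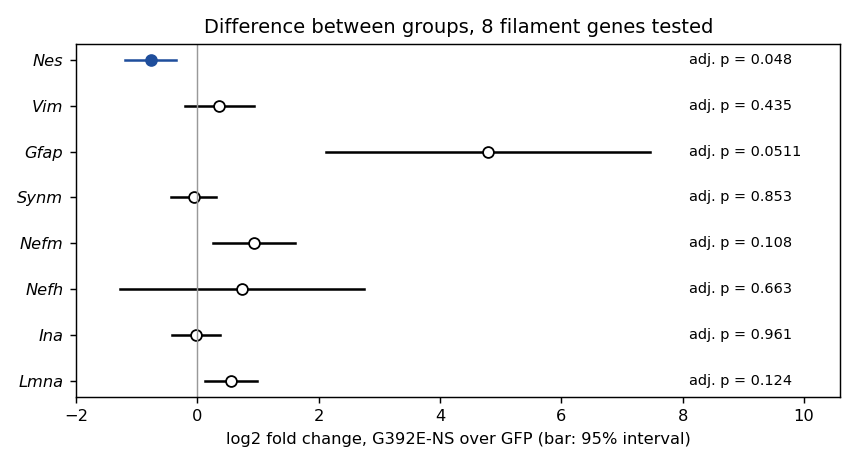
Log2 fold change of G392E-NS over GFP for the 8 filament genes that passed the filter on low counts, with 95% intervals and adjusted p (edgeR quasi-likelihood test). Nes, filled, is the member that passed, at −0.77, and Gfap has the widest interval, from 2.12 to 7.46.

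Nes (ENSMUSG00000004891, GRCm38 chromosome 3, 87971078 to 87980451) encodes nestin, the filament protein by which neural stem and progenitor cells are commonly recognised. It was at 342, 210 and 283 CPM in G392E-NS replicates 1 to 3 and at 496, 516 and 411 CPM in GFP replicates 1 to 3. All 3 G392E-NS libraries lay below all 3 GFP libraries, and G392E-NS replicate 2 was the lowest. Nes fell 1.7-fold, a log2 fold change of −0.77 (SE 0.18, 95% interval −1.19 to −0.35, adjusted p = 0.0480 by edgeR). The call is close to the threshold: it was lost without GFP replicate 1, 2 or 3 (adjusted p = 0.170, 0.163 and 0.0657) and without G392E-NS replicate 2 or 3 (0.0754 and 0.104), and with upper-quartile scaling or a stricter filter of 1 CPM in 3 libraries (0.0509 and 0.0510). DESeq2, which called 10.5% of genes, gave it an adjusted p of 0.00107. Over all 14 alternatives the log2 fold change lay between −0.96 and −0.60. As in all bulk samples, fewer cells that express a gene and less of its RNA in each cell cannot be told apart.

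Of the 12 progenitor markers outside the filament family, none fell and 1, Prom1, rose (edgeR, adjusted p = 0.00303), and the median log2 fold change was −0.06. Prom1, which encodes the membrane protein prominin, was at 6.78, 9.33 and 5.41 CPM in G392E-NS libraries and at 1.27, 1.56 and 0.941 CPM in GFP libraries. Sox2, a transcription factor that maintains neural precursors, had a log2 fold change of 0.27 (adjusted p = 0.289) and the fatty acid binding protein gene Fabp7 of 0.02 (0.959). The proliferation marker Mki67 was low and uneven, at 1.91, 1.06 and 3.91 CPM in G392E-NS replicates 1 to 3 and 8.70, 16.2 and 0.513 CPM in GFP replicates 1 to 3. At an unadjusted p under 0.05, 1 progenitor marker was lower, and DESeq2 also called 1 lower and limma-voom 0. That marker was Eomes, at 0.915, 0.424 and 0.587 CPM in G392E-NS and 2.36, 2.11 and 1.24 CPM in GFP libraries. Its groups did not overlap, and its log2 fold change of −1.54 came close to the threshold (adjusted p = 0.0543 by edgeR). It passed in 4 of 14 alternatives.

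Vim (ENSMUSG00000026728, chromosome 2, 13573927 to 13582826) encodes vimentin, the filament protein of precursors that astrocytes and mesenchymal cells keep. It was at 539, 1180 and 909 CPM in G392E-NS replicates 1 to 3 and at 682, 702 and 669 CPM in GFP replicates 1 to 3. The GFP libraries were close together, while 1 G392E-NS library lay below them all and 2 above. Vim had a log2 fold change of 0.36 (SE 0.25, 95% interval −0.21 to 0.93, adjusted p = 0.435 by edgeR) and its SD was 323 CPM in G392E-NS against 16.5 CPM in GFP libraries. Single libraries decide its value: without G392E-NS replicate 1 it was 0.59 and passed (adjusted p = 0.0396, where 9.86% of genes were called), and without G392E-NS replicate 2 it was 0.09 (0.868).

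The ratio of Vim to Nes, both per kb, was 2.13, 7.61 and 4.35 in G392E-NS replicates 1 to 3 and 1.86, 1.84 and 2.20 in GFP replicates 1 to 3. G392E-NS replicate 1 lay within the GFP range and the other G392E-NS libraries above it. The level of the ratio depends on which transcript lengths are used, since with the longest transcript of each gene the mean was 7.27 in G392E-NS and 3.05 in GFP libraries, against 4.70 and 1.97 with merged exons.

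Gfap (ENSMUSG00000020932, chromosome 11, 102887336 to 102900912) encodes the filament protein that defines mature and reactive astrocytes, and was under 3 CPM in every library but G392E-NS replicate 2. Its raw counts were 72, 617 and 33 in G392E-NS replicates 1 to 3 and 7, 1 and 15 in GFP replicates 1 to 3, or 2.99, 26.2 and 2.15 CPM and 0.403, 0.0502 and 0.642 CPM. The groups did not overlap, and G392E-NS replicate 2 held 617 of the 722 counts of its group. The log2 fold change was 4.79 (SE 1.16, 95% interval 2.12 to 7.46), a 27.7-fold difference that did not pass the test (adjusted p = 0.0511 by edgeR). Without G392E-NS replicate 2 it was 2.78 and passed (0.0473, where 3.69% of genes were called), as it did without G392E-NS replicate 1 or 3 (5.21 and 5.26, adjusted p = 0.0347 and 0.0459) and with no filter on low counts (4.76, 0.000278, where 6.81% of genes were called). Without GFP replicate 1, 2 or 3 it did not pass (0.172, 0.157 and 0.107), nor by limma-voom (0.148), and DESeq2 returned no p-value for it. Per length, Gfap stood at 0.625%, 2.49% and 0.266% of the level of Vim in G392E-NS replicates 1 to 3 and at 0.00804% to 0.108% in GFP libraries.

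Of 12 astrocyte markers outside the filament family, 7 rose and none fell by edgeR, with a median log2 fold change of 1.46. At an unadjusted p under 0.05 there were 11, all higher. DESeq2 called 9 higher and limma-voom 6, and by both none was lower. Of the 14 alternatives, Fgfr3, Clu and Gjb6 passed in all 14, Slc1a2, Apoe and Aldoc in 11 and Aldh1l1 in 8. Clu, which encodes the secreted chaperone clusterin, rose 7.75-fold (adjusted p = 0.00348). Gjb6, which encodes an astrocyte connexin, rose 12.8-fold (0.00485), with 4.37 to 10.1 CPM in G392E-NS and 0.301 to 0.898 CPM in GFP libraries. Aldoc, the brain aldolase, rose by 1.99 on the log2 scale (adjusted p = 0.0185), a call lost without GFP replicate 1 or 2 (0.0886 and 0.0550). Aqp4, the water channel of astrocyte endfeet, was at 10.9, 15.9 and 8.09 CPM in G392E-NS and 11.9, 6.78 and 19.9 CPM in GFP libraries, with overlapping groups (adjusted p = 0.861). G392E-NS replicate 2 was highest for the summed astrocyte markers, at 21900 CPM, and for Gfap, Vim and Lmna, and lowest for Nes. The part of astrocyte content in these filament values was not tested.

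**Figure D3:**
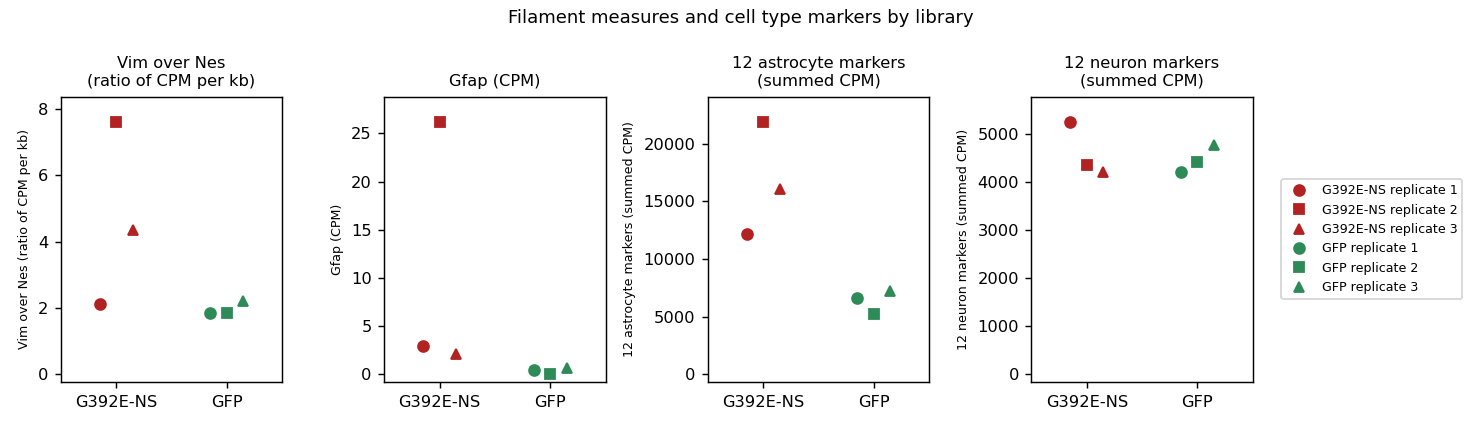
Vim over Nes as a ratio of CPM per kb, Gfap in CPM, and the summed CPM of 12 astrocyte and 12 neuron markers, with 1 point per library, G392E-NS left of GFP. G392E-NS replicate 2, the red square, is highest in the first 3 panels, at 7.61, 26.2 CPM and 21900 CPM. It lies within the GFP range for neuron markers, a sum that is mostly Map2.

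Synm (ENSMUSG00000030554, chromosome 7, 67730160 to 67759742) encodes synemin, which joins GFAP and vimentin filaments to other structures. It was at 5.28, 5.85 and 5.02 CPM in G392E-NS libraries and at 5.99, 5.47 and 5.48 CPM in GFP libraries. The groups overlapped, with a log2 fold change of −0.06 (SE 0.16, 95% interval −0.44 to 0.31, adjusted p = 0.853 by edgeR). The interval of Synm lies below that of Gfap. Synm shares 6.43% of its merged exons with genes on the opposite strand, Ttc23 among them, and the strand setting of the counting is unknown.

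Among neuronal filaments, Ina (ENSMUSG00000034336, chromosome 19, 47014698 to 47025327) held nearly all of the RNA. It encodes alpha-internexin, the filament protein of newly formed neurons. It was at 64.1, 47.2 and 48.1 CPM in G392E-NS libraries and at 46.3, 49.8 and 65.4 CPM in GFP libraries, so that each group had 1 higher library and the groups overlapped. Its log2 fold change was −0.02 (SE 0.17, 95% interval −0.41 to 0.37, adjusted p = 0.961 by edgeR), and its sign turned when single libraries were left out. Per length, Ina made up 94.0% to 95.5% of the summed neuronal filaments in G392E-NS and 96.9% to 97.8% in GFP libraries. The Nt5c2 gene covers 14.1% of its merged exons on the opposite strand.

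Nefm (ENSMUSG00000022054, chromosome 14, 68082590 to 68124846), the medium neurofilament chain, was at 3.78, 2.21 and 4.04 CPM in G392E-NS libraries and at 1.38, 1.96 and 1.84 CPM in GFP libraries. The groups did not overlap, but the log2 fold change of 0.94 (SE 0.29, 95% interval 0.26 to 1.61) did not pass (adjusted p = 0.108 by edgeR), nor under any of 14 alternatives, with adjusted p of 0.0503 to 0.313. Nefl, the light chain on which the other chains depend to assemble, had 16, 11 and 11 counts in G392E-NS libraries and 3, 8 and 9 counts in GFP libraries, or 0.467 to 0.717 and 0.173 to 0.401 CPM. It was tested only where the filter let it through: with no filter on low counts its log2 fold change was 0.87 (adjusted p = 0.372). Nefl and Nefm lie next to each other on opposite strands, and 1108 bases of their exons overlap, which is 32.8% of Nefl and 19.2% of Nefm. Without strand, reads from that stretch cannot be told apart between them.

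Nefh, the heavy neurofilament chain of mature axons, had 20, 12 and 0 counts in G392E-NS libraries and 2, 3 and 13 counts in GFP libraries. The 0 in G392E-NS replicate 3 allows a level of up to 0.196 CPM (3 counts, counting error only). Its log2 fold change of 0.73 had a 95% interval from −1.27 to 2.74 (adjusted p = 0.663 by edgeR), and the groups overlapped. Prph, which encodes peripherin, had 0, 2 and 1 counts in G392E-NS libraries and 0, 0 and 1 in GFP libraries, where 3 counts correspond to 0.125 to 0.196 CPM, and no fold is given. Of 10 markers of peripheral and motor neurons, 5 had no counts in any library, and the summed level of the list was 0.790 to 1.17 CPM in G392E-NS and 4.15 to 5.13 CPM in GFP libraries. Within this list Isl2, a motor neuron transcription factor, fell 10.5-fold (0.249 to 0.456 CPM in G392E-NS, 3.05 to 3.98 CPM in GFP libraries, adjusted p = 0.000797 by edgeR).

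Of 12 neuron markers outside the filament family, 11 were tested, 1 rose and 1 fell, with a median log2 fold change of 0.20. Gap43, a growth cone protein, rose by 1.11 on the log2 scale and the RNA-binding protein gene Elavl4 fell by 0.70 (edgeR quasi-likelihood test, adjusted p = 0.00585 and 0.0228). Gap43 was at 61.9, 41.7 and 55.5 CPM in G392E-NS and 24.0, 23.9 and 25.7 CPM in GFP libraries. Tubb3, the neuronal tubulin, and Map2, a dendritic microtubule protein, had log2 fold changes of 0.33 and −0.06 (adjusted p = 0.364 and 0.843 by edgeR). Syt1 and Snap25, whose groups did not overlap, had 0.88 and 0.47 (adjusted p = 0.064 and 0.176 by edgeR). At an unadjusted p under 0.05, 3 neuron markers were higher and 1 lower. DESeq2 called 2 higher and 1 lower, and limma-voom 1 in each direction. The call of Elavl4 was lost in 6 of 14 alternatives (adjusted p up to 0.0929), among them without each GFP library and without G392E-NS replicate 2 or 3, whereas Gap43 passed in all 14.

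Lmna (ENSMUSG00000028063, chromosome 3, 88480147 to 88509956) was at 7.32, 10.5 and 10.2 CPM in G392E-NS libraries and at 6.16, 6.67 and 6.16 CPM in GFP libraries. The groups did not overlap. The log2 fold change of 0.56 (SE 0.18, 95% interval 0.13 to 0.98) did not pass (adjusted p = 0.124 by edgeR), except without G392E-NS replicate 1, where it was 0.69 (0.0369). The B-type lamins were far more abundant per length: Lmnb1 was at 43.8 to 58.3 CPM per kb in G392E-NS and 50.2 to 60.5 CPM per kb in GFP libraries, and Lmnb2 at 9.23 to 11.9 and 9.0 to 11.5 CPM per kb. Lmna stood at 0.0215, 0.0410 and 0.0299 of the level of Lmnb1 in G392E-NS libraries and at 0.0210, 0.0228 and 0.0175 in GFP libraries, and the groups overlapped in this ratio. Relative to Lmnb2 it stood at 0.124, 0.194 and 0.147 in G392E-NS libraries and at 0.117, 0.121 and 0.0918 in GFP libraries, and here the groups did not overlap. On the log2 scale Lmnb1 differed by 0.00 (SE 0.14, adjusted p = 0.988 by edgeR) and Lmnb2 by 0.05 (0.849).

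**Figure D4:**
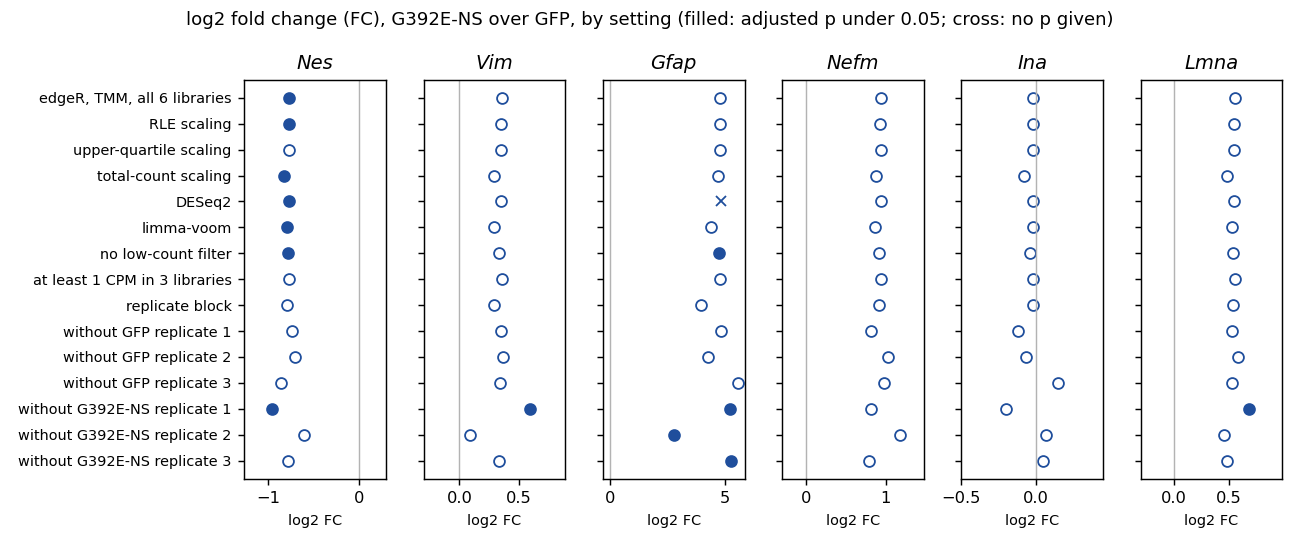
Log2 fold change of G392E-NS over GFP for 6 filament genes under the edgeR fit to all 6 libraries and 14 alternatives, with filled circles at an adjusted p under 0.05. Nes is below 0 and Gfap, Nefm and Lmna are above 0 throughout, Ina lies on both sides of 0, and Vim is at 0.09 without G392E-NS replicate 2.

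Of 21 other intermediate filament and lamin genes listed, 7 passed the filter and none was called higher or lower by edgeR, DESeq2 or limma-voom, while 1, Bfsp1, had an unadjusted p under 0.05. Bfsp1, which encodes a filament protein best known from the eye lens, was at 0.541, 0.806 and 0.587 CPM in G392E-NS and 0.288, 0.201 and 0.171 CPM in GFP libraries (adjusted p = 0.0510 by edgeR). The simple epithelial keratins Krt8, Krt18 and Krt19 had no counts in any library, and Des, the muscle filament gene, was at no more than 0.1 CPM. The median log2 fold change of the 7 was 0.05.

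Plec, which encodes the giant linker plectin that ties intermediate filaments to each other and to membranes, rose. It was at 5.61, 13.1 and 8.22 CPM in G392E-NS libraries and at 2.02, 1.36 and 2.87 CPM in GFP libraries, a 4.28-fold difference (log2 fold change 2.10, SE 0.38, adjusted p = 0.0185 by edgeR). It was the 1 of 4 plakin linkers tested that was called (6 of 7 listed were in the table), and the call was lost without GFP replicate 1 or 2 (0.0890 and 0.0668). Dst and Macf1, the other large plakins of the nervous system, had log2 fold changes of −0.30 and 0.01 (adjusted p = 0.285 and 0.966).

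Of 11 tested genes for chaperones and enzymes that fold, modify or degrade filament proteins, 2 rose and none fell, with a median of 0.63, and 6 had an unadjusted p under 0.05, all higher. Cryab, which encodes the small heat shock protein alphaB-crystallin that keeps GFAP and vimentin filaments from clumping, was at 41.7, 142 and 86.6 CPM in G392E-NS and 24.5, 23.5 and 29.3 CPM in GFP libraries (log2 fold change 1.80, SE 0.38, adjusted p = 0.0323 by edgeR), and it overlaps Hspb2 on the opposite strand. Bag3, a co-chaperone of small heat shock proteins, was at 10.8, 19.6 and 11.9 CPM in G392E-NS and 6.97, 6.37 and 7.53 CPM in GFP libraries (1.02, SE 0.24, adjusted p = 0.0476). Both were highest in G392E-NS replicate 2. Both calls were lost without any of the GFP libraries and without G392E-NS replicate 3 (adjusted p = 0.0740 to 0.129 for Cryab and 0.0660 to 0.165 for Bag3), and that of Bag3 without G392E-NS replicate 2 (0.0670). DESeq2 called 3 genes of this list higher and limma-voom 0.

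No gene among 17 tested filament kinases and phosphatases was called by edgeR, DESeq2 or limma-voom, and none had an unadjusted p under 0.05. Cdk5 and its activator gene Cdk5r1, whose kinase phosphorylates neurofilament tails, had log2 fold changes of −0.08 and −0.02. The smallest p was that of the mitotic kinase gene Plk1 (0.0541, adjusted p = 0.232), at 0.499, 0.467 and 1.63 CPM in G392E-NS and 2.48, 3.21 and 0.813 CPM in GFP libraries. Of 16 lamin partners and processing enzymes tested, edgeR and limma-voom called none, 1 was higher and 2 lower at an unadjusted p under 0.05, and DESeq2 called 1 in each direction. Syne1, which encodes a giant nesprin that links the nucleus to the cytoskeleton, came nearest, at 4.03, 6.40 and 6.52 CPM in G392E-NS and 3.34, 3.21 and 2.95 CPM in GFP libraries (log2 difference 0.83, SE 0.23, adjusted p = 0.0804 by edgeR).

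Of 20 genes that regulate Gfap transcription, 1 fell and none rose (3 in each direction at an unadjusted p under 0.05; DESeq2 called 1 higher and 1 lower, limma-voom 1 lower). It was Nfia, a transcription factor that starts gliogenesis and opens the Gfap promoter, at 201, 184 and 189 CPM in G392E-NS and 285, 277 and 263 CPM in GFP libraries. Its log2 fold change was −0.52 (SE 0.09, adjusted p = 0.0153 by edgeR), opposite in sign to that of Gfap, and the call was lost without GFP replicate 1 or 2 (0.0892 and 0.0870). Stat3, which carries cytokine signals to the Gfap gene, had a log2 fold change of 0.04 (adjusted p = 0.911), and Sox9 of 0.46 (0.403).

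Some of the filament genes are also used by other cell types. The summed level of 8 microglial markers was 0.0416 to 0.326 CPM in G392E-NS and 0.128 to 0.351 CPM in GFP libraries, with Csf1r and C1qa at 0 in all 6. Of 7 endothelial markers, Cldn5 and Cdh5 were at 0 in all libraries and the sums were 0.587 to 1.36 CPM in G392E-NS and 1.25 to 1.28 CPM in GFP libraries. Of 10 fibroblast and mural markers, which bear on Vim and Lmna, Dcn and Lum were at 0 in all libraries. The sums were 8.40 to 16.9 CPM in G392E-NS and 11.8 to 14.5 CPM in GFP libraries. The largest part of each sum was Fn1, at 4.16 to 8.23 CPM in G392E-NS and 9.64 to 12.8 CPM in GFP libraries. The sums therefore mainly follow a gene that lay lower in all G392E-NS libraries. Within this list Twist1, a mesenchymal transcription factor, had 34, 45 and 50 counts in G392E-NS libraries and none in GFP libraries (adjusted p = 0.00602 by edgeR). Of the 4 genes of the list that were tested, edgeR called Twist1 alone. Fn1 had a log2 fold change of −0.80, and Acta2 and Tagln of 1.47 and 0.64 (adjusted p = 0.117, 0.203 and 0.278 by edgeR). At an unadjusted p under 0.05, 2 of the 4 were higher and 1 lower. DESeq2 called 1 in each direction, and limma-voom 1 higher and 0 lower. The 8 muscle markers summed to 3.94 to 4.63 CPM in G392E-NS and 3.63 to 5.73 CPM in GFP libraries. The 10 oligodendrocyte lineage markers summed to 3030 to 5370 CPM in G392E-NS and 3460 to 4130 CPM in GFP libraries, and 2 of the 9 tested rose, Pdgfra and Mog (edgeR, adjusted p = 0.0435 and 0.0295). Both calls were lost without any of the GFP libraries and without G392E-NS replicate 2 (adjusted p = 0.0512 to 0.172 for Pdgfra and 0.0795 to 0.117 for Mog), and that of Pdgfra with total-count scaling (0.0540).

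Genes with the most similar pattern over the 6 libraries were found as those with the smallest root mean square difference of log2(CPM + 1) values, each centred on its own mean. Nearest to Nes were Enc1, Pcdhb19, Dock10 and Fbn2, at differences of 0.0749 to 0.0940. Enc1, an actin-binding protein of the nervous system, was at 401, 260 and 335 CPM in G392E-NS and 543, 555 and 502 CPM in GFP libraries. Nearest to Gfap were Gm13111, Igfbp5, Fam198a and Ahnak, at 0.293 to 0.483. Each of these 4 was highest in G392E-NS replicate 2, as was Gfap, which their choice by likeness to Gfap favours. Among them was Igfbp5, which encodes a secreted binding protein of insulin-like growth factors. Igfbp5 was at 69.2, 566 and 64.4 CPM in G392E-NS and 41.5, 36.8 and 45.6 CPM in GFP libraries. Nearest to Nefl were Pcbp4, Fbxo24, Kazald1 and Pigx, at 0.0455 to 0.0507. Nefl lay between 0.173 and 0.717 CPM in all 6 libraries, under the 1 CPM added before the logarithm. That compresses its differences between libraries, so these small values do not show a closer match than those around Nes.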

How the data were processed

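The deposited table holds raw counts per Ensembl gene and library, whole numbers that the authors did not normalise, per the values themselves. Per the submitters' processing notes, the GRCm38 build, HTSeq 0.6.1, TopHat2 2.0.12, DESeq2 1.4.5 and R 3.2.2 were used, with no roles given. Annotation release and strand setting: not given in the sources used here. Columns were matched to samples by title. Symbols, positions and exon lengths came from GENCODE M21 (GRCm38), which named 37607 of 39179 genes. No replicate pair was a duplicate (chi-square per degree of freedom 8.02 to 56.4).

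Tests used edgeR 4.0.16 in R 4.3.3: filterByExpr kept 13775 genes (99.92% of counts), with TMM factors, a quasi-likelihood F test without covariates, Benjamini-Hochberg adjustment over all genes tested and a threshold of 0.05. Fold changes are G392E-NS over GFP. A standard error is the fold change over the root of F. The scripts were tested on simulated counts. Tried besides were DESeq2 1.42.0 (after the same filter), limma-voom (limma 3.58.1), scaling by total count, RLE or upper quartile, no filter, 1 CPM in 3 libraries, a replicate block, each library left out, and other lengths.

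The members and gene lists were chosen with earlier results of these data known. Named are all members, of each list up to 3 called genes with the largest change or the gene with the smallest p, and the 4 genes most like Gfap, Nes and Nefl. Other genes were named after their values were seen. The 95% intervals of fold changes come from the edgeR fit and include the spread between libraries, while floors of 3 counts cover counting error only.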

Additional observations from a re-analysis of the deposited data

How the results depend on the processing

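Directions held for Nes, Gfap, Nefm, Lmna, Vim and Synm under every alternative that gave a value. Ina, at −0.02 with all libraries, reversed to 0.15 when GFP replicate 3 was left out, to 0.07 when G392E-NS replicate 2 was, and to 0.05 when G392E-NS replicate 3 was, in a range of −0.20 to 0.15. With each library left out in turn, the filament genes called higher numbered 0 to 3 and those called lower 0 to 1, and all genes called 242 to 1373. The 3 called higher without G392E-NS replicate 1 were Vim, Gfap and Lmna. With no filter on low counts 1 filament gene was called higher, and 1579 genes were called in all, against 1450 by DESeq2 and 847 in the edgeR fit to all libraries. The filament genes called lower numbered 0 with upper-quartile scaling, with 1 CPM required in 3 libraries and with the replicate block. With the replicate block, 267 genes were called, and adjusted p was 0.113 for Nes, 0.0913 for Aldoc and 0.121 for Pdgfra. Deviations of same-numbered libraries from their group means correlated at 0.0338, −0.383 and −0.255, and not every library correlated best with its own number. With 3 libraries in each group such deviations depend on each other, so these values cannot decide whether same-numbered libraries were paired. With the longest transcript as length, the GFP shares were 94.0% progenitor, 5.23% neuronal, 0.484% nuclear and 0.261% astrocyte, and Vim over Nes was 3.05. Counts were low for Nefl, Nefh, Prph and, in GFP libraries, Gfap. The causes of these shifts were not tested.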
